A study of Arabidopsis thaliana with 6 samples.

Results

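SAUR15, AT1G75580, AT4G34760 and IAA17 are auxin-response genes of Arabidopsis thaliana, and all 4 had lower transcript levels in plants that overexpress the transcription factor gene ANAC069 than in plants with a knockout of it, when both were under salt. The first 3 belong to the SAUR (small auxin-up RNA) family. RefSeq lists SAUR51 as a synonym of AT1G75580 and SAUR50 as a synonym of AT4G34760. IAA17, also called AXR3, belongs to the Aux/IAA family. They were found by symbol, title or locus in the authors' deposited tables of probe sets called up or down, where they are 4 of 541 named genes, and all 4 stand among the 219 named genes of the down table. They were selected on the comparison described here, so their own differences between the genotypes are a description and carry no test.

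The groups were OE, an ANAC069 overexpression line (OE-3) with 3 arrays, and KO, an ANAC069 knockout line (KO-2, from the insertion stock SALK_095231C) with another 3. All plants were 4 weeks old and all had been given 200 mM NaCl for 3 h. Each genotype is thus represented by 1 line, no source used here gives the promoter that drives the overexpression, and no wild-type or unsalted plants were analysed here. The ATH1 array reads each transcript with several short probes, together called a probe set, which the MAS5 method summarises into 1 signal. The labels name no tissue, and none of the 18 leaf, root, flower and seed marker loci looked for had a named probe set. Probe sets were named only from the authors' up and down tables, so a marker not listed there has no name. The tissue could therefore not be checked. ANAC069 itself (NAC069, AT4G01550) had signals of 2991, 2386 and 2360 in OE, against 386, 364 and 391 in KO. These KO signals were above the medians of the same arrays (160.7, 181.5 and 185.5). Without wild-type plants, a loss of the transcript in KO could not be checked here.

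Auxin acts by bringing Aux/IAA proteins to TIR1/AFB receptors, which mark them for breakdown. The auxin response factors that they hold back are then free to act on their target genes. Aux/IAA genes are themselves auxin-induced, so they form a feedback loop, and a stabilised form of IAA17 in the axr3 mutants disturbs root gravitropism and growth. SAUR genes are among the fastest auxin-induced genes. Well-studied SAUR proteins inhibit PP2C.D phosphatases, which keeps the plasma membrane proton pumps active and the wall of growing cells acidic and extensible.

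SAUR15 (AT4G38850), first described as SAUR-AC1, lies on chromosome 4 from 18126256 to 18126526 on the plus strand in the authors' deposited table, for which no source used here gives a genome build. Its signals were 135, 168 and 84.5 in OE replicates 1, 2 and 3, against 478, 426 and 321 in KO replicates 1, 2 and 3. The groups did not overlap, and the lowest KO array was 1.91 times the highest OE array. The means were 129 ± 42.1 in OE and 408 ± 79.6 in KO (SD, n = 3 each). On the log2(signal + 16) scale the difference, OE over KO, was -1.57 (SE 0.25), which is 2.97-fold lower in OE.

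AT1G75580 (chromosome 1, 28377529 to 28377856, plus strand, same table) is a SAUR gene named by its locus. It had signals of 96.6, 46.2 and 76.3 in OE, against 273, 295 and 201 in KO. Each OE signal was below the median of its own array (157.7, 148.6 and 156.6), and no detection call was used. Every OE array was below every KO array, by a factor of at least 2.08. The means were 73.0 ± 25.4 in OE and 256 ± 49.0 in KO (SD, n = 3 each), a log2 difference of -1.64 (SE 0.26). Because 16 was added before the logarithm, the size of this difference depends on the added constant: it was -1.84 with 1 added and -1.23 with 64 added. The difference of SAUR15 was likewise -1.69 with 1 added and -1.30 with 64 added.

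AT4G34760 (chromosome 4, 16582470 to 16582794, minus strand, same table) varied most within the genotypes. Its signals were 513, 261 and 227 in OE, against 788, 1272 and 1016 in KO. OE replicate 1 stood apart from the other OE arrays, at 2.26 times the lowest of them, yet it was still below all KO arrays. The means were 334 ± 156 in OE and 1025 ± 242 in KO (SD, n = 3 each), with a log2 difference of -1.64 (SE 0.30). Without OE replicate 1 the difference was -1.98 (SE 0.22).

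IAA17 (AT1G04250, chromosome 1, 1136381 to 1138340, plus strand, same table) had the smallest difference. Its signals were 225, 239 and 362 in OE, against 584, 578 and 480 in KO. The lowest KO array, replicate 3, was 1.33 times the highest OE array, also replicate 3. The means were 275 ± 75.6 in OE and 547 ± 58.4 in KO (SD, n = 3 each), and the log2 difference was -0.98 (SE 0.20), 1.97-fold lower in OE. Without OE replicate 3 it was -1.18 (SE 0.17). Whether IAA17 differed less than the SAUR genes was not tested.

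**Figure D1:**
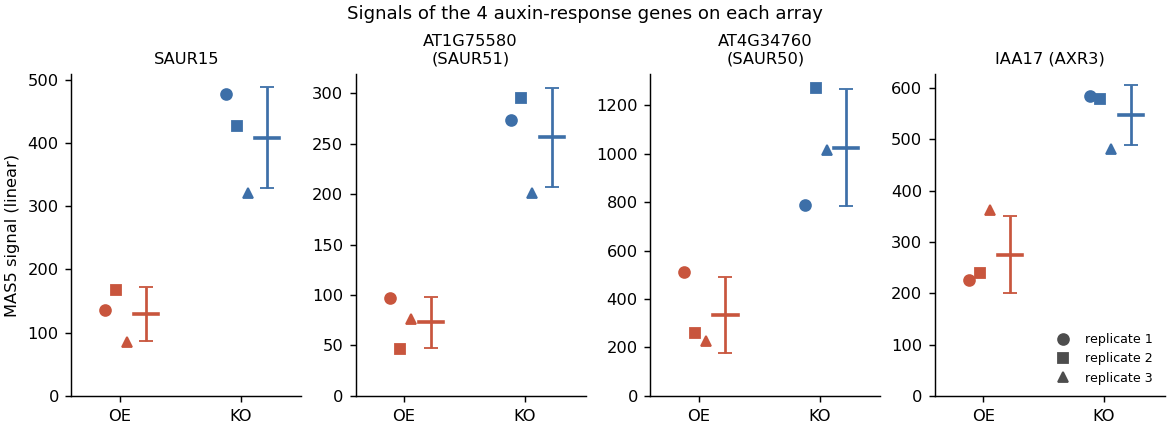
MAS5 signal (linear axis from 0, its own scale in each panel) of SAUR15, AT1G75580, AT4G34760 and IAA17 on each of 3 OE and 3 KO arrays; symbols mark replicate numbers, horizontal bars the mean and error bars the SD. In every panel the 3 OE points lie below the 3 KO points, and the ratio of the lowest KO to the highest OE signal is smallest for IAA17 (362 in OE against 480 in KO, a ratio of 1.33).

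A linear model was fitted with limma to all 15922 probe sets above a floor on brightness, and a probe set was called where its Benjamini-Hochberg adjusted p was under 0.05. All 4 genes were called lower in OE, where 1.84% of tested probe sets were called lower, 3.03% higher and 4.87% in either direction. The rule chose the genes on this contrast, so nothing is read from their count. Every OE signal lay below every KO signal for all 4, as for 18.3% of the tested probe sets. Ordered from the most negative log2 difference, AT1G75580, AT4G34760, SAUR15 and IAA17 were numbers 59, 61, 68 and 564 of the 15922, whose median difference was -0.08.

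In the authors' deposited table the folds were 3.63 for AT1G75580, 3.24 for SAUR15, 3.22 for AT4G34760 and 2.03 for IAA17. By that fold they hold places 8, 14, 15 and 202 of 226. That table lists 0.994% of the probe sets outside the controls and the up table lists 1.5%. IAA17 is close to the limit of a 2-fold difference: the lowest fold in the authors' deposited table is 2.0007, and the probe set just outside it, among those with an unadjusted p under 0.05 in an equal-variance comparison, had a fold of 1.9997.

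**Figure D2:**
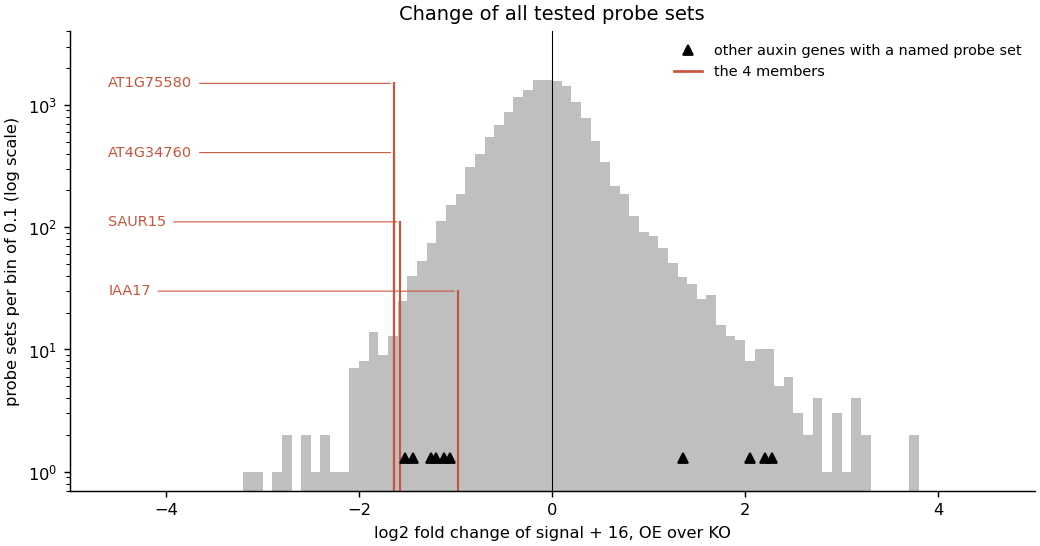
Log2 difference of signal + 16, OE over KO, for the 15922 probe sets tested (histogram, bins of 0.1, log count axis), with red lines at the 4 genes and black triangles at the 10 other auxin genes that have a named probe set. The 3 SAUR genes lie between -1.64 and -1.57, in the lower tail, IAA17 lies at -0.98, and the triangles fall on both sides of 0.

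The calls depended on which arrays were used, over all probe sets as for the 4 genes. Without OE replicates 1, 2 and 3 in turn, 3, 1 and 1 of the 4 genes were called lower. Without KO replicates 1, 2 and 3 the numbers were 4, 0 and 2. Of all tested probe sets, 293 were called lower with all arrays. Without OE replicates 1, 2 and 3 this was 587, 7 and 11, and without KO replicates 1, 2 and 3 it was 852, 7 and 37. With KO replicate 2 left out the limma fit gave all 4 an unadjusted p under 0.05, as it did 2879 of 15922 probe sets. The genes were selected on this contrast, so nothing is read from that. Over these 6 fits the log2 difference ran from -1.76 to -1.33 for SAUR15, from -1.83 to -1.40 for AT1G75580, from -1.98 to -1.42 for AT4G34760 and from -1.18 to -0.85 for IAA17.

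Some signs of RNA quality moved with the genotype, and others did not. The ratio of a 3' to a 5' probe set of the same control transcript was higher on every OE array than on every KO array for 3 of 6 controls, 1 for actin and both for GAPDH (exact permutation p = 0.1 each, two-sided, the smallest that 3 against 3 arrays allow, adjusted p = 0.2). The actin ratio that did not overlap averaged 5.41 in OE and 3.96 in KO. The other actin ratio averaged 18.9 in OE and 15.8 in KO, with overlap. The other 3 overlapped (exact permutation p = 0.4, 0.6 and 0.5). The mean log2 ratio of the 6 controls overlapped too, at 1.73 on OE replicate 3 and 1.80 on KO replicate 1. With the mean log2 ratio of the 6 controls as a covariate, SAUR15 was the member still called, at -2.15 (SE 0.29). AT1G75580, AT4G34760 and IAA17 were then at -1.73 (SE 0.41), -1.74 (SE 0.47) and -0.77 (SE 0.30) and were not called. Without the covariate these 3 were at -1.64 (SE 0.26), -1.64 (SE 0.30) and -0.98 (SE 0.20). Over all tested probe sets 19 were called lower with the covariate, against 293 without it. The part of RNA quality in these differences was otherwise not tested. In these bulk samples, fewer cells that express a gene and less of its RNA per cell cannot be told apart.

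**Figure D3:**
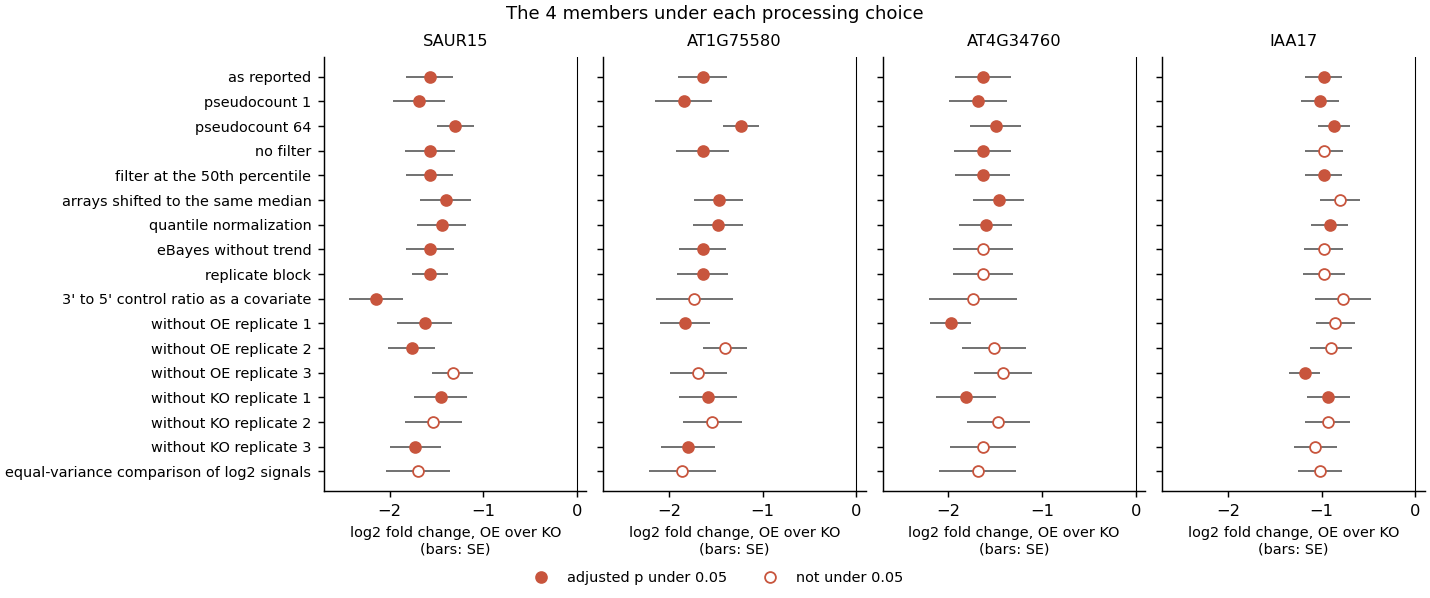
Log2 difference, OE over KO (points, with SE bars), of each of the 4 genes as reported and under each processing choice; filled points had a limma (or equal-variance) adjusted p under 0.05 and open points did not. All points lie below 0; the gap for AT1G75580 at the 50th percentile is where its probe set was below the floor on brightness. IAA17 has the most open points.

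The authors' tables are limited by a p-value, which depends on the spread within each genotype, so that spread entered the choice of the genes, whereas the order of the arrays within a genotype did not. Each value was set against the mean of its own genotype on the log2(signal + 16) scale. SAUR15 was lowest on OE replicate 3 (-0.49) and highest on OE replicate 2 (0.39). AT4G34760 was also lowest on OE replicate 3 (-0.44), but highest on OE replicate 1 (0.69). AT1G75580 was lowest on OE replicate 2 (-0.48), and IAA17 was highest on OE replicate 3 (0.41), where both SAUR15 and AT4G34760 were lowest. The 4 genes therefore did not share 1 order of the OE arrays. Among KO arrays, SAUR15, AT1G75580 and IAA17 were each lowest on replicate 3 (-0.31, -0.31 and -0.18), whereas AT4G34760 was lowest on replicate 1 (-0.35).

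Other SAUR genes were listed by the authors as well. Of 80 SAUR loci in the RefSeq gene table, 6 had a named probe set here, and all 6 are in the down table and none in the up table. Names come from the authors' up and down tables alone, so a SAUR gene had to be listed there to be counted, and the other 74 were not analysed here. The 3 besides the members are AT4G38840, AT4G38860 and AT4G34770, for which RefSeq gives the synonyms SAUR14, SAUR16 and SAUR1. AT4G38840 had signals of 1139, 1001 and 530 in OE, against 3020, 2048 and 2051 in KO. This is a log2 difference of -1.45 (SE 0.28), with no overlap between the genotypes. AT4G38860 had signals of 1332, 1112 and 784 in OE, against 3154, 2434 and 2102 in KO (log2 difference -1.25, SE 0.22), again without overlap. AT4G34770 had signals of 172, 196 and 156 in OE, against 359, 567 and 308 in KO (log2 difference -1.12, SE 0.23). Of the 6 SAUR genes it had the lowest coefficient of variation among OE arrays (11.4%) and the highest among KO arrays (33.3%), and its groups did not overlap either. Limma called all 3 lower with all arrays and 0 of them without OE replicate 2, OE replicate 3 or KO replicate 2. Over all 15922 tested probe sets 293 were called lower with all arrays, and 7, 11 and 7 in those fits. Each of the 3 genes had an unadjusted p under 0.05 there, as did 3046, 3534 and 2879 probe sets. The authors selected them on these arrays, so their shared direction is not independent evidence.

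These 3 genes lie beside members in the genome. In the order of protein-coding genes in RefSeq (assembly TAIR10.1, used for names and order alone), SAUR15 stands between AT4G38840 and AT4G38860, and AT4G34760 stands next to AT4G34770. By the alignments in the authors' deposited table, AT4G38840 and SAUR15 are 782 bases apart, SAUR15 and AT4G38860 are 3829 apart, and 8556 separate those of AT4G34760 and AT4G34770. Of the 219 named genes in the down table, 7 had a directly adjacent gene in the same table, and 5 of these 7 are SAUR genes. The up table had 14 such genes of 322. SAUR genes often occur side by side, with 34 of the 80 RefSeq SAUR loci next to another. The remaining neighbours of the members, among them the SAUR loci AT1G75590 and AT4G34750 and the Aux/IAA locus AT1G04240 (IAA3) beside IAA17, have no named probe set here. Adjacent SAUR genes are similar in sequence, and whether their probes cross-react was not tested.

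The adjacent trio shared some of its extremes within the genotypes. SAUR15, AT4G38840 and AT4G38860 were each lowest on OE replicate 3 (-0.49, -0.66 and -0.42 from the OE mean) and each highest on KO replicate 1 (0.24, 0.37 and 0.32 from the KO mean). Their highest OE array was not the same: it was replicate 2 for SAUR15 (0.39) and replicate 1 for AT4G38840 (0.42) and AT4G38860 (0.34). On KO replicate 2 SAUR15 was at 0.08, AT4G38840 at -0.19 and AT4G38860 at -0.05. The mean log2 ratio of the 3' to 5' controls also stood apart on the shared arrays, at 1.73 on OE replicate 3 against 1.97 and 1.94 on OE replicates 1 and 2, and at 1.80 on KO replicate 1 against 1.57 and 1.53 on KO replicates 2 and 3. With that ratio as a covariate the log2 differences of SAUR15, AT4G38840 and AT4G38860 were -2.15, -2.25 and -1.85, and the part of RNA quality in their shared extremes was otherwise not tested. The median of the down table behaved otherwise, at -0.01 on OE replicate 3 and -0.31 on KO replicate 1. The pair on the other stretch of chromosome 4 was less alike. AT4G34760 and AT4G34770 were both highest on KO replicate 2 (0.33 and 0.49), while on OE replicate 1 they were at 0.69 and -0.02. Both were also lowest on OE replicate 3 (-0.44 and -0.14), so that low was not particular to the trio.

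**Figure D4:**
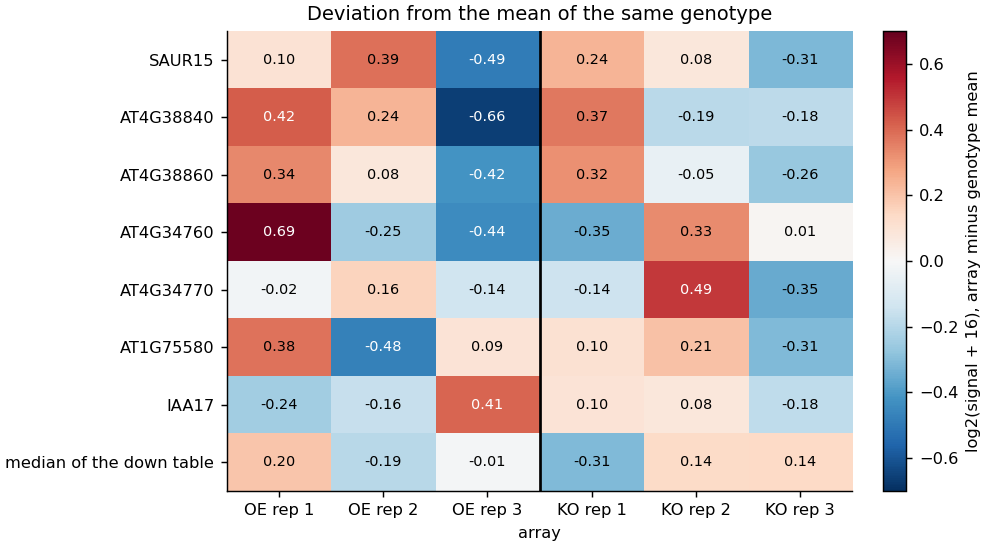
Deviation of log2(signal + 16) on each array from the mean of the same genotype (colour and printed values; columns are the 3 OE and then the 3 KO arrays) for the 6 named SAUR genes, IAA17 and the median of the down table. The top 3 rows, which are genomic neighbours, share blue on OE replicate 3 and red on KO replicate 1, while IAA17 is red on OE replicate 3 (0.41). AT4G34760 and AT4G34770 are blue on OE replicate 3 as well (-0.44 and -0.14).

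Likeness of pattern was measured as the root mean square difference of log2(signal + 16) over the 6 arrays, after each gene's mean was subtracted, so a small value means a like pattern. It includes the difference between genotypes, on which the members and the other named genes were all listed. Genes of the up table are therefore far from a member by that choice, and the measure is a description. Of 539 other named genes, those most like SAUR15 were its own neighbours, AT4G38840 at 0.22 and AT4G38860 at 0.24. Among the 525 named genes outside the auxin sets, whose median was 1.38, the closest was AT1G52190, a gene of the nitrate and peptide transporter family (NPF1.2), at 0.29. AT5G40830 and AT2G47500 followed at 0.30 and 0.32. SAUR15 was farther from AT1G75580 (0.45), AT4G34760 (0.46) and IAA17 (0.55).

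For AT1G75580 the closest was XTH7, a xyloglucan endotransglucosylase gene of wall remodelling, at 0.20, then AT1G75090 and AT4G30330, at 0.24 each. Outside the auxin sets AT4G34760 was closest to AT1G33811 (0.17), then to XTH6 (0.18), of the same wall enzyme family as XTH7, and to PDCB1 (0.21), which encodes a plasmodesmal callose-binding protein, and the auxin-annotated wall gene XTH4 was as close (0.17). IAA17 was closest to the histone chaperone gene NAP1;3 and to AT4G01410, at 0.09 each, and then to AT5G15320 (0.11). The 12 genes outside the auxin sets named here as closest were all in the down table, which follows from a measure that includes the difference between genotypes.

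Names come only from the authors' up and down tables, so most genes that make, carry and perceive auxin had no name here. Across 7 fixed lists with 119 auxin loci, 8 had a named probe set: the 6 SAUR genes of 30 loci, IAA17 of 29 Aux/IAA loci, and 1 of 15 auxin transport loci. None of the 15 auxin response factor, 6 receptor, 8 GH3 conjugation and 16 synthesis loci did, and their levels were not analysed here. The transport gene, LAX3, encodes an auxin influx carrier. It had signals of 160, 152 and 77.2 in OE, against 290, 282 and 350 in KO, and was called lower (log2 difference -1.20, SE 0.26).

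**Figure D5:**
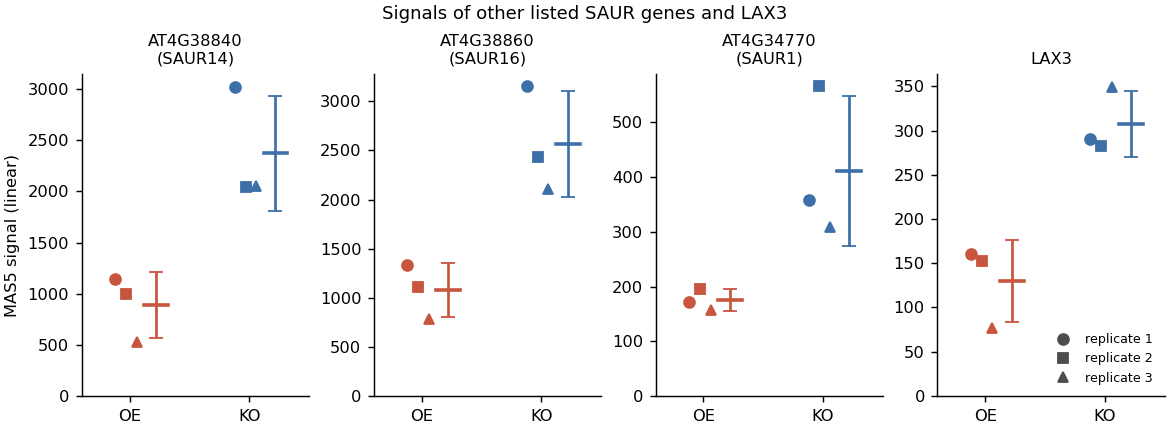
MAS5 signal (linear axis from 0, its own scale in each panel) of the 3 further SAUR genes and of the auxin carrier gene LAX3 on each array, drawn as for the members, with the mean and SD. All 4 panels have the OE points below the KO points, and the gap of AT4G34770 is the narrowest, 196 in OE against 308 in KO.

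Annotation to auxin did not go with a single direction. Of the 14 named genes that the authors' deposited tables annotate with the Gene Ontology term for response to auxin, 10 were in the down table and 4 in the up table. Limma called the 10 lower and the 4 higher in OE, where 1.84% of all tested probe sets were called lower and 3.03% higher. The genes have names because the authors' tables list them on these arrays (219 named genes down, 322 up), so nothing is read from these calls. Besides the 4 members, the 3 further SAUR genes and LAX3, the lower ones were XTH4 and SAR1. XTH4, a wall-loosening enzyme gene, had signals of 3671, 2703 and 2118 in OE, against 6120, 9413 and 8855 in KO (log2 difference -1.53, SE 0.23). SAR1 encodes the nucleoporin NUP160, and its loss suppresses auxin-resistant mutants. It had signals of 286, 249 and 324 in OE, against 572, 655 and 605 in KO (log2 difference -1.06, SE 0.15).

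The 4 higher genes are better known from stress and nutrient responses. MYB51, a regulator of indole glucosinolate synthesis, had signals of 490, 613 and 608 in OE, against 208, 282 and 162 in KO (log2 difference 1.35, SE 0.21). ACS6, an ethylene synthesis gene, had signals of 1774, 1210 and 2339 in OE, against 258, 691 and 257 in KO (log2 difference 2.20, SE 0.38). BT5 and BT2, which encode BTB and TAZ domain proteins, had log2 differences of 2.05 (SE 0.34) and 2.28 (SE 0.41). In all 4 the OE arrays lay above every KO array, as for 12.9% of the tested probe sets. These 10 auxin genes besides the members were all called with all arrays, where 4.87% of tested probe sets were, and like the members they had been listed by the authors on this contrast. Without OE replicates 1, 2 and 3 the number was 9, 0 and 1, and without KO replicates 1, 2 and 3 it was 10, 3 and 6. In the same fits 1096, 73 and 99, and 1400, 160 and 280, of all 15922 tested probe sets were called, against 776 with all arrays. At an unadjusted p under 0.05 limma counted all 10 without OE replicate 2, and 3046 of the 15922 tested probe sets.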

How the data were processed

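The deposited value table holds the authors' MAS5 intensity of 22810 probe sets per array (MAS5 per the submitters' processing notes, no version given in the sources used here). Each array has a mean near 499.8 after the lowest and highest 2% are left out, and array medians lay between 149 and 186. The authors' deposited up and down tables (341 and 226 probe sets) list each with the authors' p-value and fold, given without sign. All 567 deposited folds match the log2 ratio of geometric means, OE over KO, within 0.0001. They also hold 48 columns of per-array values whose names match no sample, which were not used.

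Names came from these tables: 541 probe sets carried 1 gene found in RefSeq. Gene Ontology identifiers reached the cell limit of 255 characters in 9 probe sets, so terms may be missed.

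Here limma 3.58.1 (R 4.3.3; lmFit, then eBayes with trend) was fitted to log2(signal + 16) of 6 arrays, with group as the only term. The 64 controls and probe sets at or below the 30th percentile of mean level were left out, leaving 15922. The number of arrays limits the precision. The design text calls the replicates independent biological ones. Control ratios were compared with exact permutation tests (SciPy 1.17.1). The fit was tested on simulated data. The members, the lists and the tests were chosen with earlier results of these data known, and adjacency in the genome was counted after the data were seen. The genes named besides the members are ANAC069, auxin genes from the lists or annotation (values for up to 10 of the latter) and the 3 closest in pattern to each member. Planned promoter motifs and protein identities were not analysed here. A further listed gene is not reported here.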

Additional observations from a re-analysis of the deposited data

How the results depend on the processing

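The 4 log2 differences stayed negative, and those of the 10 other auxin genes kept their sign, under every alternative tried. The authors had listed these genes on the same contrast and their groups did not overlap. Leaving out an array could therefore not change a sign, and nothing is read from the kept signs. The deposited scaling left a median difference of -0.08 over all tested probe sets, against 0.09 after arrays were shifted to the same median. That shift gave 794 probe sets higher and 143 lower in place of 483 and 293, and put SAUR15 at -1.40, AT1G75580 at -1.47, AT4G34760 at -1.47 and IAA17 at -0.81, with IAA17 no longer called. Without a brightness filter IAA17 (-0.98) lost its call and 337 probe sets were called in all, against 776. Without the variance trend AT4G34760 (-1.64) and IAA17 (-0.98) lost theirs, leaving 2 members, 3 other auxin genes and 204 probe sets. With the control ratio as a covariate AT1G75580 (-1.73), AT4G34760 (-1.74) and IAA17 (-0.77) were not called, leaving 1 member, 3 other auxin genes and 208 probe sets. The equal-variance comparison of log2 signals called 0 probe sets (3279 at an unadjusted p under 0.05, among them all 4 members and all 10 others), with SAUR15 at -1.70, AT1G75580 at -1.86, AT4G34760 at -1.69 and IAA17 at -1.02. The authors had listed these genes at a p-value under 0.05 on the same arrays, so nothing is read from their unadjusted count. AT1G75580 could not be fitted with the filter at the 50th percentile. The cause of these changes was not tested.

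Leaving out 1 array at a time gave 73 to 1400 called probe sets, 0 to 4 members and 0 to 10 other auxin genes. The log2 differences ran from -1.76 to -1.33 (SAUR15), -1.83 to -1.40 (AT1G75580), -1.98 to -1.42 (AT4G34760) and -1.18 to -0.85 (IAA17).

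Replicate numbers are shared by the genotypes, but same-numbered arrays did not deviate together (r = -0.24, -0.12 and 0.06 over probe sets for numbers 1, 2 and 3), and OE replicates 1 and 2 were each closer to another number. With a replicate block 275 probe sets, 2 members and 8 other auxin genes were called, and AT4G34760 (-1.64) and IAA17 (-0.98) were not.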
